A study of Mus musculus with 12 samples.

Results

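Gene expression of mouse embryonic fibroblasts that lacked the p21-activated kinase Pak1 was compared with that of wildtype fibroblasts, both left without irradiation. The comparison took the 3 arrays labelled Pak1 knock-out with no treatment and the 3 arrays labelled wildtype with no treatment out of 12 arrays, the other arrays being of the same 2 cell genotypes after ionizing radiation. It covered the 14996 of 16755 array features (probe sets) that the platform annotation assigns to a single gene symbol, which stand for 14860 genes. Both genotypes came from embryos of day 13.5 on a C57Bl6J background, were immortalised with the SV40 T antigen and grew in DME medium with fetal bovine serum, and the knockout cells carried whole-body ablation of Pak1.

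Each deposited value is a log2 level from which the median of that probe set over the 12 arrays was subtracted. A value of 0 is therefore the middle of the series and not absence of the transcript, and levels of different genes cannot be set against each other. The labels call the 3 arrays of a group biological replicates, without saying whether they came from separate embryos, separately immortalised lines or cultures of a single line, so the p-values reflect no more than the scatter among these arrays. Since the number of cell lines per genotype is not stated, genotype and cell line cannot be told apart. No probe set of Pak1 was analysed here, so the knockout itself was not checked. Of 3 probe sets of Y chromosome genes 2 were lower in knockout, Eif2s3y (a translation initiation factor subunit) by -3.34 and Kdm5d (a histone demethylase) by -2.04 on the log2 scale. The part that the sex of the embryos or loss of a chromosome has in the other differences was not tested.

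As background, PAK1 is a serine/threonine kinase that is switched on by the GTP-bound forms of Cdc42 and Rac. It phosphorylates proteins that steer actin turnover, contraction and microtubules, LIM kinases and Op18/stathmin among them, and it is brought to focal adhesions by the PIX exchange factors and their GIT partners. In fibroblasts it is best known for its part in lamellipodia, cell polarity and migration, and it also feeds into MAP kinase, survival and transcriptional signalling.

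The difference between the genotypes was broad. Differences are given as log2 fold change, knockout minus wildtype, with limma's standard error (n = 3 arrays per group) and a p-value corrected with the Benjamini-Hochberg method over the full set of 16755 probe sets. With the adjusted p below 0.05 and a difference of 2-fold or more, called higher or lower from here on, 675 probe sets passed (4.5%), 371 higher in knockout (2.47%) and 304 lower (2.03%). At the adjusted p alone 3318 probe sets were higher (22.1%) and 3343 lower (22.3%), and the median log2 fold change of all was -0.02. Most calls were moderate in size. Between 1 and 1.5 on the log2 scale lay 421 of the calls, 122 lay between 1.5 and 2, 98 between 2 and 3, and 34 reached 3 or more, of which 24 were higher in knockout and 10 lower. In all 675 the 3 wildtype and 3 knockout values did not overlap. This describes the calls and is no separate support for them, since the share without overlap among all probe sets is not given. For groups of genes, the number of members past the adjusted p in each direction is given beside these shares, and since the background contains large receptor families with hardly any differences, the balance of higher to lower members says more than either share alone.

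The irradiated arrays of the same cells share no array with this comparison, and their genotype difference can be set beside it. There the adjusted p alone gave 24.2% higher and 21.6% lower in knockout. All 371 probe sets called higher without irradiation were higher in the irradiated knockout arrays too, 370 of them past the adjusted p, and 303 of the 304 called lower were lower there past the adjusted p. The exceptions were Slbp, the histone mRNA stem-loop binding protein, with 1.38 without and 0.35 with irradiation, and Fgf18, a fibroblast growth factor, with -1.29 and 0.13. Both were named after their values were seen. The genotype difference itself changed with irradiation (interaction, adjusted p under 0.05) for 37 of the 675, and for 217 of the 14996 probe sets (1.45%). Since both sets of arrays came from the same cells, they are repeat measurements of these cells and not of the genotype.

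**Figure D1:**
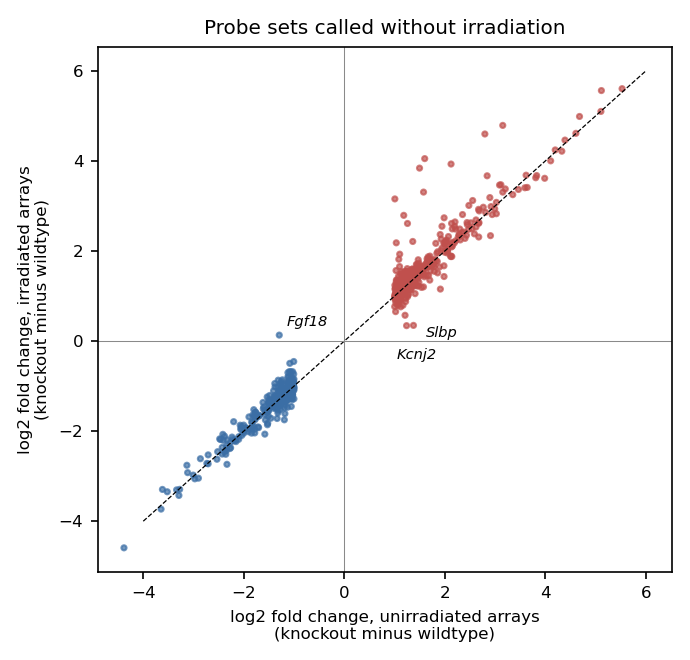
Each point is 1 of the 675 probe sets called without irradiation, with its log2 fold change (knockout minus wildtype) in the 6 unirradiated arrays on the x axis and in the 6 irradiated arrays on the y axis, red where called higher and blue where called lower. The points follow the dashed line of equality, and Fgf18 is the blue point above 0 on the y axis.

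Several genes of the circuit PAK1 belongs to differed between the genotypes. Rhoj, a relative of Cdc42, stood at -0.63, -0.84 and -0.77 in the wildtype arrays and 0.69, 0.71 and 0.68 in the knockout arrays. It was called higher, at 1.44 ± 0.05 on the log2 scale (adjusted p = 4.65e-10). The direct upstream activators rose less, Rac1 by 0.59 ± 0.08 (adjusted p = 9.47e-05) and Cdc42 by 0.43 ± 0.06 (adjusted p = 4.5e-05).

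Exchange factors and other regulators of these GTPases changed in opposite directions. Arhgef7, the PIX exchange factor that recruits PAK to adhesions, stood at 0.69, 0.66 and 0.64 in the wildtype arrays and -0.70, -0.64 and -0.64 in the knockout arrays. It was called lower at -1.32 ± 0.03 (adjusted p = 2.81e-11), and Dock11, an exchange factor for Cdc42, was called higher at 1.46 ± 0.06 (adjusted p = 1.35e-09). Elmo1, which works with Dock proteins to activate Rac, was called lower at -2.71 ± 0.06 (adjusted p = 1.11e-11). Of the GIT proteins that pair with PIX, Git2 was higher at 0.63 ± 0.05 and Git1 lower at -0.26 ± 0.04 (adjusted p = 1.26e-06 and 0.000184). Arhgdib, a GDP dissociation inhibitor best known from blood cells, stood at -1.03, -1.01 and -1.12 in the wildtype arrays and 1.02, 0.83 and 1.13 in the knockout arrays. Its log2 fold change was 2.05 ± 0.11 (adjusted p = 1.42e-08), whereas the Rac GTPase-activating proteins Arhgap24 and Srgap3 were called lower, Arhgap24 at -1.01 ± 0.05 and Srgap3 at -1.04 ± 0.09 and -1.21 ± 0.06 on its 2 probe sets.

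Genes that build actin filaments were among the lower genes. Wasf3, a WAVE subunit that links Rac to Arp2/3, stood at 1.01, 0.97 and 0.87 in the wildtype arrays and -1.05, -0.87 and -0.93 in the knockout arrays. Its groups lay far apart, and the log2 fold change was -1.90 ± 0.06 (adjusted p = 2.27e-10). Fmnl2, a formin of the cell front, was called lower at -1.28 ± 0.06 and the rhotekin Rtkn2 at -1.05 ± 0.12. Of 46 PAK1 substrates and binding partners 12 were higher and 17 lower at the adjusted p alone, with a median of -0.02. Limk1, the LIM kinase that PAK1 activates, did not pass the test, at 0.23 ± 0.12 on the log2 scale (adjusted p = 0.141). The repressor Snai1, a reported PAK1 substrate, was called lower at -1.32 ± 0.13 (adjusted p = 3.14e-06), and its difference was -0.87 in the irradiated arrays.

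Tubulins leaned towards higher levels in knockout. Of 11 tubulin probe sets 6 were higher and 1 lower (median 0.23), and 3 were called, all higher. Tubb2b, a beta-tubulin of developing neurons, stood at -1.11, -1.30 and -1.45 in the wildtype arrays and 1.40, 1.34 and 1.44 in the knockout arrays. The 2 groups did not overlap and the log2 fold change was 2.68 ± 0.10 (adjusted p = 5.88e-10). Tuba4a followed at 1.38 ± 0.05 and Tubb2a at 1.48 ± 0.18, the latter with a wide spread among knockout arrays, from 0.35 to 1.11. Microtubule-associated proteins divided evenly, with 17 of 59 higher and 16 lower. Dclk1, a doublecortin-like kinase that binds microtubules, stood at 1.17, 1.12 and 1.09 in the wildtype arrays and -1.23, -1.13 and -1.09 in the knockout arrays. It was called lower at -2.28 ± 0.06 (adjusted p = 2.88e-11), as were Clip4 at -1.20 ± 0.06 and the kinesin Kif26b at -1.38 ± 0.11. Mid1ip1, which stabilises microtubules, was called higher at 2.05 ± 0.09 (adjusted p = 3.75e-09), and so was the dynein light chain Dynlt3 at 1.04 ± 0.06. Of 28 kinesins 5 were higher and 11 lower.

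Intermediate filaments changed in few members. Krt19, a keratin of simple epithelia, stood at -1.29, -1.22 and -1.36 in the wildtype arrays and 1.503, 1.52 and 1.41 in the knockout arrays. The difference was 2.76 ± 0.07 on the log2 scale (adjusted p = 2.81e-11), a 6.80-fold difference, while 42 of the 51 keratin and other intermediate filament probe sets passed in neither direction. Nes, the nestin of precursor cells, was called higher at 1.78 ± 0.12. Vim, the vimentin of mesenchymal cells, did not pass the test, at 0.05 ± 0.03 (adjusted p = 0.233). The septin Septin3 was called lower at -1.23 ± 0.09, and the 11 septins were otherwise even, with 4 higher and 4 lower in all.

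**Figure D2:**
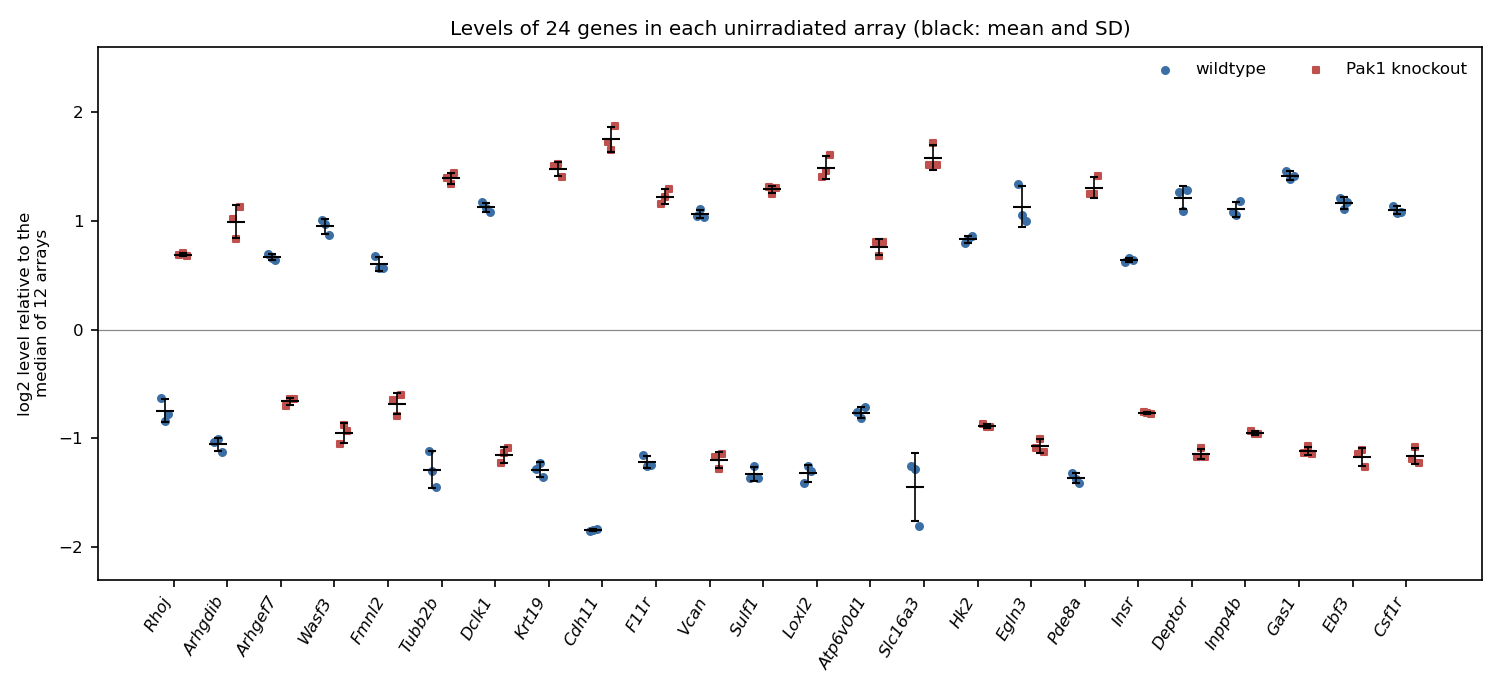
Log2 level after subtraction of each probe set's 12-array median (y axis) of 24 genes named in the text (x axis) in the 3 wildtype arrays (blue circles) and the 3 Pak1 knockout arrays (red squares) without irradiation, with the mean and SD in black. For each of the 24 genes all 3 arrays of a genotype lie on the same side of 0 and the genotypes lie on opposite sides. The genes were chosen among called ones without overlap and 0 is the middle of the series, so this is no separate support for the calls.

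Cell-cell contact genes gave large single differences. Cdh11, the cadherin of mesenchymal cells, stood at -1.85, -1.84 and -1.83 in the wildtype arrays and 1.72, 1.65 and 1.88 in the knockout arrays. This was a 12.1-fold difference (3.59 ± 0.05 on the log2 scale, adjusted p = 4.98e-13), and Cdh13, a cadherin held by a lipid anchor, was called higher at 1.63 ± 0.07 (adjusted p = 3.63e-09). Among 26 cadherins 6 were higher and 1 lower, and N-cadherin (Cdh2), the main classical cadherin of fibroblasts, differed by no more than 0.18 ± 0.04 (adjusted p = 0.00398). F11r, the junctional adhesion molecule A, stood at -1.15, -1.25 and -1.24 in the wildtype arrays and 1.15, 1.22 and 1.30 in the knockout arrays. It and the junction protein Cgnl1 were the called members among 31 tight junction genes, at 2.44 ± 0.05 and 1.18 ± 0.11, and Gjb2 was called higher among 16 connexins and pannexins at 1.26 ± 0.14. Protocadherins went the other way. Of 32 protocadherin probe sets 1 was higher and 12 lower (median -0.11), and 3 members of the beta cluster were called lower, Pcdhb18 at -1.09 ± 0.07, Pcdhb21 at -2.34 ± 0.13 and Pcdhb22 at -1.34 ± 0.09.

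Tetraspanins, which gather other membrane proteins into patches, had 11 of 24 higher and 3 lower (median 0.11). Tspan2 stood at -1.05, -1.14 and -1.08 in the wildtype arrays and 1.06, 1.02 and 1.08 in the knockout arrays, or 2.15 ± 0.07 apart on the log2 scale (adjusted p = 2.09e-10), and Tspan11 was called lower at -1.08 ± 0.07. Cdon, a co-receptor of Hedgehog signalling, was called higher at 1.40 ± 0.05 and Cavin2, a coat protein of caveolae, at 1.98 ± 0.08.

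Matrix proteoglycans and the enzymes that modify them held large differences of both signs. Of 27 large proteoglycans, glypicans and syndecans 6 were higher and 6 lower, of 13 small leucine-rich proteoglycans 1 was higher and 3 lower, and of 49 sulfotransferases and enzymes of glycosaminoglycan chains 18 were higher and 9 lower. Vcan, the large hyaluronan-binding proteoglycan versican, stood at 1.04, 1.11 and 1.04 in the wildtype arrays and -1.17, -1.28 and -1.15 in the knockout arrays. It was called lower at -2.26 ± 0.05 (adjusted p = 6.26e-12), together with the hyaluronan link protein Hapln4 at -1.36 ± 0.05 and the small leucine-rich proteoglycans Podnl1 at -2.23 ± 0.06 and Ogn at -1.14 ± 0.09. Glypican 1 (Gpc1), a heparan sulfate proteoglycan of the cell surface, was called higher at 1.48 ± 0.04 (adjusted p = 6.09e-11). Sulf1, which strips sulfate from heparan sulfate outside the cell, stood at -1.37, -1.25 and -1.37 in the wildtype arrays and 1.31, 1.25 and 1.31 in the knockout arrays. Its difference was 2.62 ± 0.05 (adjusted p = 1.8e-12), or 6.14-fold. The chondroitin sulfotransferases went in opposite directions, Chst15 higher at 1.14 ± 0.06 and Chst3 lower at -1.31 ± 0.09.

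Genes of elastic fibres and microfibrils leaned lower at the adjusted p alone, with 15 of 36 lower and 11 higher (median -0.08), yet the 4 called members were all higher. Loxl2, a lysyl oxidase that cross-links collagen and elastin, stood at -1.41, -1.25 and -1.30 in the wildtype arrays and 1.40, 1.46 and 1.60 in the knockout arrays. Knockout and wildtype differed by 2.81 ± 0.07 (adjusted p = 4.81e-11), followed by fibulin 5 (Fbln5) at 2.05 ± 0.07, Smoc2 at 1.23 ± 0.06 and Loxl4 at 1.07 ± 0.05. Of the proteases and inhibitors, cathepsins Ctsh (2.02 ± 0.10) and Ctsz (1.13 ± 0.04) and the serpins Serpinb9b (1.70 ± 0.10) and Serpinb6b (1.58 ± 0.07) were called higher, and Serpinf1, the secreted factor PEDF, was called lower at -1.14 ± 0.06.

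Lysosomal genes had the largest share of higher members among the gene lists with more than 10 probe sets. Of 49 probe sets of 47 genes of lysosomal enzymes and membrane proteins 29 were higher (59.2%) and 9 lower (18.4%), with a median log2 fold change of 0.31 against -0.02 for all probe sets, and 5 were called, all higher. In the irradiated arrays 31 were higher and 8 lower. Atp6v0d1, a subunit of the proton pump that acidifies lysosomes, stood at -0.76, -0.81 and -0.71 in the wildtype arrays and 0.81, 0.68 and 0.80 in the knockout arrays. Between the genotypes this gave 1.53 ± 0.05 (adjusted p = 1.71e-10). The sialidase Neu1 was called higher at 1.25 ± 0.06, the fucosidase Fuca1 at 1.03 ± 0.05 and the sulfatase Galns at 1.38 ± 0.08. Exceptions were present: the abundant membrane protein Lamp1 was lower at -0.18 ± 0.04 (adjusted p = 0.00338) and the calcium channel Mcoln1 lower at -0.57 ± 0.05 (adjusted p = 1.23e-06), and Tfeb, the transcription factor of lysosomal genes, did not pass the test at -0.02 ± 0.04 (adjusted p = 0.815). Autophagy genes shared the direction, with 16 of 36 higher and 3 lower (median 0.11). Both called members, the LC3 protein Map1lc3b (1.01 ± 0.07) and its relative Gabarapl2 (1.02 ± 0.08), coat autophagosomes and were higher.

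Lysosomal genes often carry an E-box-like CLEAR element, which Tfeb and its relatives bind. Its core TCACGTGA, which reads alike on both strands, was searched in the RefSeq promoter windows (GRCm38.p6, 250 bases before to 50 after the start) and lay in 202 of 11894 measured genes with a window (1.7%) and in 6 of 38 lysosomal genes. Of those 6 genes 3 were higher and 2 lower, and of the 32 without it 19 were higher and 6 lower. Stretches around the core, in capitals, are shown 5′ to 3′ on the strand of the gene for 2 higher genes beside the pump gene and for the lower Mcoln1, since genes of both directions carried the same letters.
Atp6v0d1: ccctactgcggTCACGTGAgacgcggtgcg (chr8:105566050-105566079, minus strand)
Atp6v1a: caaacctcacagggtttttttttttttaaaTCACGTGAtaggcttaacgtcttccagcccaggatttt (chr16:44139354-44139421, minus strand)
Cln3: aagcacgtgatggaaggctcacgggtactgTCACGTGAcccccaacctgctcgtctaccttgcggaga (chr7:126583321-126583388, minus strand)
Mcoln1: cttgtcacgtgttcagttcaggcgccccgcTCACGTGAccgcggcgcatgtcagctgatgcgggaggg (chr8:3500443-3500510, plus strand)
Atp6v1a, another pump subunit, was higher at 0.79 ± 0.04 (adjusted p = 2.34e-08), and Cln3, a lysosomal membrane protein, at 0.58 ± 0.06 (adjusted p = 3.53e-06). These 3 genes beside Atp6v0d1 were chosen for the motif, after their values were seen.

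Vesicle traffic genes shared the lean towards higher levels. Among 116 synaptotagmin, SNARE and sorting nexin probe sets 48 were higher (41.4%) and 18 lower (15.5%), and 7 were called higher against 1 lower. Snx19, a sorting nexin of endosomes, stood at -1.20, -1.19 and -1.16 in the wildtype arrays and 1.15, 1.13 and 1.29 in the knockout arrays. In log2 terms the change was 2.38 ± 0.05 (adjusted p = 1.08e-11), and the SNARE partner Stxbp2 (1.75 ± 0.05), the syntaxin Stx12 (1.08 ± 0.05) and the membrane-cutting ATPase Vps4a (1.32 ± 0.06) were also called higher. The called lower member was Sytl2, which binds Rab27 on secretory vesicles, at -1.28 ± 0.06. Rab GTPases and their regulators were less lopsided, with 33 of 93 higher (35.5%) and 26 lower. Rab29, which acts at the Golgi and lysosomes, stood at -1.05, -1.13 and -1.39 in the wildtype arrays and 1.23, 1.41 and 1.56 in the knockout arrays, or 2.59 ± 0.10 apart on the log2 scale (adjusted p = 1.22e-09). Rab3b (1.94 ± 0.11) and Rab7b (1.07 ± 0.06) were called higher as well, and Rab6b lower at -1.61 ± 0.07. Of 45 endocytic coat and adaptor genes 17 were higher and 11 lower, the adaptor Dab2 at 1.72 ± 0.06 and the clathrin light chain Cltb at 1.07 ± 0.12 among the 3 called higher.

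Endoplasmic reticulum folding genes moved together by small steps. Of 32 genes of the unfolded protein response and folding 18 were higher and 1 lower, with a median of 0.26, and none was called. The protein disulfide isomerase Pdia6 stood at -0.24, -0.24 and -0.12 in the wildtype arrays and 0.31, 0.25 and 0.30 in the knockout arrays. The groups did not overlap, and the log2 fold change was 0.49 ± 0.05 (adjusted p = 3.92e-06). Edem1, which sends misfolded glycoproteins to degradation, was higher at 0.44 ± 0.04 (adjusted p = 4.73e-06) and the chaperone Hsp90b1 at 0.40 ± 0.06 (adjusted p = 0.000166). The chaperone most used as a stress marker, Hspa5 (BiP), did not pass the test at 0.10 ± 0.07 (adjusted p = 0.323), nor did calreticulin (Calr) at -0.07 ± 0.04 (adjusted p = 0.247). In the irradiated arrays 19 were higher and 5 lower.

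Promoters of this pathway are known for an element made of CCAAT, 9 free bases and CCACG, bound by NF-Y with ATF6. Searched on both strands, and able to share bases with the ACGTG motif described further on, it lay in 16 of 11894 promoter windows (0.135%) and in 9 of 29 genes of this list. Of the 9 genes with it 4 were higher and none lower, and of the 20 without it 11 were higher and 1 lower. It is shown for the 4 higher genes and for Hspa5, which did not pass, with the fixed bases of the element in capitals. On Hsp90b1 and Creld2 the match is on the opposite strand, so its bases read as CGTGG and ATTGG.
Pdia6: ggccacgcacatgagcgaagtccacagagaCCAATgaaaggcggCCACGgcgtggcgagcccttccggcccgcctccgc (chr12:17266461-17266539, plus strand)
Hsp90b1: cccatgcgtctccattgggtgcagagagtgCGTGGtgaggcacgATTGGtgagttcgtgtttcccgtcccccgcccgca (chr10:86705503-86705581, minus strand)
Creld2: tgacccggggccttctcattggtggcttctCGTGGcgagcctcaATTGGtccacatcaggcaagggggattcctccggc (chr15:88819490-88819568, plus strand)
Syvn1: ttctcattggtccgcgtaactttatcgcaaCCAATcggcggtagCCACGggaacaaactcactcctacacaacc (chr19:6046502-6046575, plus strand)
Hspa5: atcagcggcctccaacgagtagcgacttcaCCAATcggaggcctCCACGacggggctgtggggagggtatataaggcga (chr2:34771995-34772073, plus strand)
Creld2, a secreted folding factor, was higher at 0.29 ± 0.07 (adjusted p = 0.00504), and Syvn1, the ubiquitin ligase of ER-associated degradation, at 0.30 ± 0.10 (adjusted p = 0.0259), a pass that was lost without wildtype replicate 2 or 3 or knockout replicate 2, both chosen for the motif after their values were seen.

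**Figure D3:**
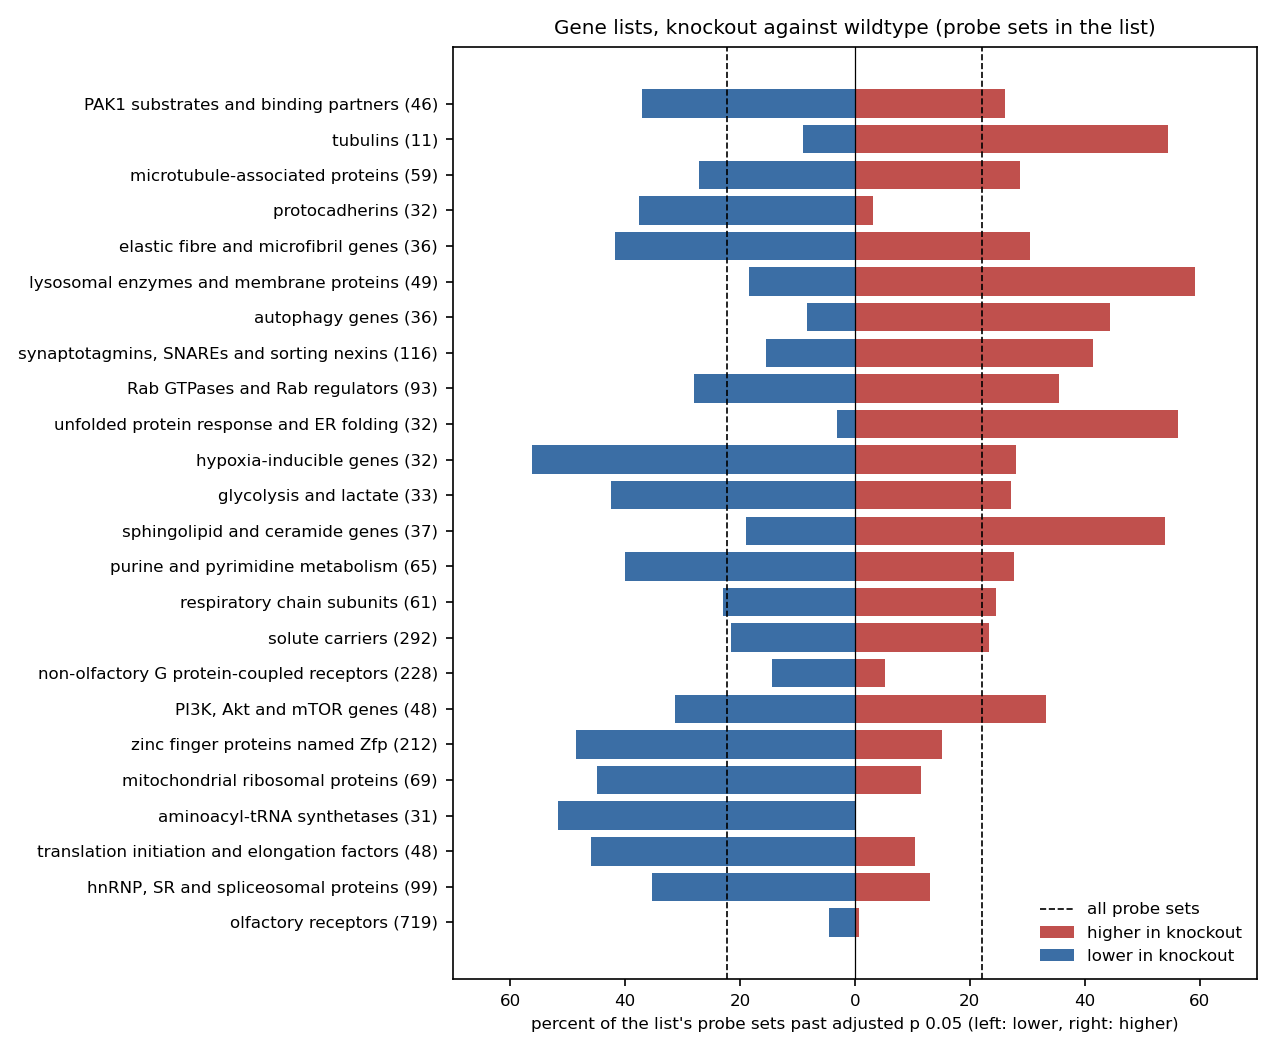
Percent of the probe sets of 24 gene lists (y axis, with their number in parentheses) that were higher (red, to the right) or lower (blue, to the left) in unirradiated knockout arrays at an adjusted p under 0.05 (x axis). Dashed lines mark all probe sets, 22.1% higher and 22.3% lower, and lysosomal and ER folding genes reach furthest to the right while hypoxia-inducible genes and aminoacyl-tRNA synthetases reach furthest to the left.

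Glycolytic and hypoxia-inducible genes had more lower than higher members. Of 33 glycolysis and lactate probe sets 14 were lower and 9 higher (median -0.10), with 5 called lower and 1 higher, and in the irradiated arrays 10 were lower and 8 higher. The balance differed with the chromosomes described further on, with 10 lower and 4 higher of 20 on those where lower probe sets prevailed and 2 lower and 5 higher of 9 on those where higher ones did. Hk2, the hexokinase of growing cells, stood at 0.80, 0.83 and 0.86 in the wildtype arrays and -0.86, -0.90 and -0.89 in the knockout arrays. It was called lower at -1.72 ± 0.10 (adjusted p = 4.82e-08), with Pfkfb3, which raises the activator of phosphofructokinase, at -1.07 ± 0.06, Pdk1, the kinase that closes pyruvate entry into the citric acid cycle, at -1.42 ± 0.08, and the muscle enolase Eno3 at -1.56 ± 0.07. Slc16a3, the exporter of lactate, was the called higher member. It stood at -1.25, -1.28 and -1.81 in the wildtype arrays and 1.51, 1.71 and 1.51 in the knockout arrays, with the third wildtype array lowest, and was called higher at 3.02 ± 0.14 (adjusted p = 4.45e-09), an 8.14-fold difference.

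Of 32 hypoxia-inducible genes 18 were lower (56.2%) and 9 higher, with a median of -0.19, and 6 were called lower against 2 higher. The glycolytic genes Hk2, Pfkfb3 and Pdk1 are members of this list too. On the chromosomes where lower probe sets prevailed 8 of 12 were lower and 1 higher. Where higher ones prevailed 7 of 13 were lower and 5 higher, and on the others 3 of 7 were lower and 3 higher. Egln3, an oxygen-sensing prolyl hydroxylase, stood at 1.34, 1.05 and 1.00 in the wildtype arrays and -1.09, -1.001 and -1.12 in the knockout arrays. Its log2 fold change was -2.20 ± 0.08 (adjusted p = 6.92e-10). The carbonic anhydrase Car12 was called lower at -1.62 ± 0.04. The classical target Vegfa, a blood vessel growth factor, was lower at -0.73 ± 0.05 (adjusted p = 2.99e-07) and the glucose carrier Slc2a1 at -0.37 ± 0.10 (adjusted p = 0.00747). Plod2, which hydroxylates collagen lysines, was called higher at 1.52 ± 0.07 (adjusted p = 3.92e-09). In the irradiated arrays 9 were higher and 13 lower. The core of the hypoxia response element, ACGTG, is short, and it also lies inside the CLEAR core. Searched on both strands, it occurred in 3069 promoter windows (25.8%) and in 17 of 26 genes of the list (65.4%). Of those 17 genes 11 were lower and 4 higher, and of the 9 without it 4 were lower and 3 higher. It is shown in capitals for 4 genes called lower, with the match of Hk2 on the opposite strand.
Egln3: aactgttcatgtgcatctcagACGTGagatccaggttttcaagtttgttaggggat (chr12:54204069-54204124, minus strand)
Hk2: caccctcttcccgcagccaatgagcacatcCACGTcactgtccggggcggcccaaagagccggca (chr6:82774472-82774536, minus strand)
Ak4: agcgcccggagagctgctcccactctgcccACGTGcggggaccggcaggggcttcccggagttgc (chr4:101419460-101419524, plus strand)
Pfkfb3: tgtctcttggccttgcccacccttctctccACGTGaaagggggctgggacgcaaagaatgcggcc (chr2:11502108-11502172, minus strand)
Ak4, a mitochondrial adenylate kinase chosen after its values were seen, was called lower at -1.84 ± 0.13 (adjusted p = 2.48e-07).

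Other metabolic genes gave opposite signs within a pathway. Sphingolipid and ceramide genes leaned higher, with 20 of 37 probe sets higher and 7 lower (median 0.21). Sgms2, which makes sphingomyelin, stood at -0.87, -0.88 and -0.98 in the wildtype arrays and 0.62, 0.64 and 0.63 in the knockout arrays, or 1.54 ± 0.04 apart on the log2 scale (adjusted p = 3.58e-11). The ganglioside synthase B4galnt1 (1.67 ± 0.07) and the ceramide synthase Cers5 (1.11 ± 0.06) were called higher. Another ceramide synthase, Cers4, stood at 1.47, 1.56 and 1.58 in the wildtype arrays and -1.38, -1.52 and -1.52 in the knockout arrays. It had the largest difference of the list and was called lower at -3.01 ± 0.06 (adjusted p = 3.52e-12), as was Smpdl3b, a membrane-bound phosphodiesterase, at -1.22 ± 0.05. Of 65 purine and pyrimidine probe sets 26 were lower and 18 higher, with 6 called lower, among them the deaminases Dctd (-1.47 ± 0.05) and Ada (-1.25 ± 0.05), the kinase Nme4 (-1.50 ± 0.06) and xanthine dehydrogenase Xdh (-1.32 ± 0.05). The called higher member of that list, Dpysl3 (2.92 ± 0.06), is named after a pyrimidine enzyme but is known for axon growth. Both enzymes of creatine synthesis were called lower, Gatm at -1.89 ± 0.06 and Gamt just past 2-fold, as were the transaminase Gpt2 (-1.36 ± 0.05) and the folate enzyme Shmt1 (-1.15 ± 0.07), while spermine oxidase (Smox) was called higher at 1.82 ± 0.07. Of 61 respiratory chain subunits 15 were higher and 14 lower, with none called and a median of -0.01, and in the irradiated arrays 11 were higher and 20 lower. On the chromosomes described further on where higher probe sets prevailed, 12 of 21 subunits were higher and 2 lower. Where lower ones did, 1 of 28 was higher and 10 lower.

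Enzymes that handle foreign compounds were few but large in effect. Of 45 probe sets of sulfotransferases, UDP-glucuronosyltransferases, esterases, paraoxonases and related enzymes 9 were higher and 3 lower, with 5 called higher and 1 lower. Pon3, a lipid-bound lactonase, stood at -1.64, -1.70 and -1.75 in the wildtype arrays and 1.74, 1.70 and 1.86 in the knockout arrays. The knockout arrays lay far above, at 3.46 ± 0.05 on the log2 scale (adjusted p = 4.54e-13). The epoxide hydrolase Ephx1 (2.35 ± 0.10), the quinone reductase Nqo1 (1.61 ± 0.06) and Pon2 (1.24 ± 0.05) were called higher and the flavin monooxygenase Fmo1 lower at -2.07 ± 0.07. Of the carbonyl reductases, Cbr1 was called higher at 1.05 ± 0.10 and Cbr3 lower at -1.06 ± 0.10, and Cbr2 (0.80 ± 0.08) and Cbr4 (0.80 ± 0.07) were higher at the adjusted p alone (adjusted p = 2.95e-06 and 1.26e-06). None of 46 cytochrome P450 probe sets was called, with 4 higher and 3 lower at the adjusted p alone.

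Pon3 lies in a stretch of chromosome 6 that also holds Sgce, a sarcoglycan gene imprinted in mouse. Sgce, chosen after its values were seen, stood at -2.88, -2.78 and -2.69 in the wildtype arrays and 2.69, 2.75 and 2.79 in the knockout arrays, the largest difference of all probe sets with a single symbol at 5.53 ± 0.05 (adjusted p = 3.73e-14). Not every gene of the stretch was higher. Between Sgce and Pon3 the measured neighbours Ppp1r9a (-0.01) and Pon1 (-0.03) did not pass the test. Beyond Pon3, Pon2 was higher by 1.24 on the log2 scale, then Asb4 lower by -0.90 and Pdk4 higher by 0.67. On the other side of Sgce, Casd1 was lower by -0.22.

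Transporters and channels held large single differences. Of 292 solute carriers 68 were higher (23.3%) and 63 lower (21.6%), close to the shares of all probe sets, with 11 called higher and 6 lower. Slc9a7, a proton exchanger of the Golgi and endosomes, stood at -1.50, -1.35 and -1.37 in the wildtype arrays and 1.57, 1.61 and 1.58 in the knockout arrays. The difference was 2.99 ± 0.06 on the log2 scale (adjusted p = 8.56e-12). Slc43a3, which carries purine bases, was called higher at 2.68 ± 0.08 and the cationic amino acid carrier Slc7a3 at 1.09 ± 0.05. The glutamate carrier Slc1a3 stood at 1.06, 1.01 and 1.18 in the wildtype arrays and -1.16, -1.002 and -1.05 in the knockout arrays, or -2.15 ± 0.06 apart on the log2 scale (adjusted p = 7.7e-11). The amino acid carriers Slc43a1 (-1.45 ± 0.06) and Slc38a4 (-1.20 ± 0.05) and the zinc carrier Slc39a10 (-1.15 ± 0.04) were called lower as well.

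Of 94 sodium, calcium, chloride and Trp channel probe sets 19 were higher and 8 lower, and 5 were called higher against 1 lower. Ano1, a calcium-activated chloride channel, stood at -1.40, -1.23 and -1.29 in the wildtype arrays and 1.30, 1.23 and 1.40 in the knockout arrays. Knockout and wildtype differed by 2.62 ± 0.06 (adjusted p = 1.68e-11), and the osmotically gated channel Trpv4 (1.67 ± 0.06), the ATP-gated channel P2rx4 (1.00 ± 0.05) and the endosomal chloride exchanger Clcn3 (1.07 ± 0.04) were called higher too, with the sodium channel Scn3a lower at -1.78 ± 0.09. Among 73 potassium channels 7 were higher and 5 lower, and Kcnh2 (-1.90 ± 0.06) and Kcna4 (-1.77 ± 0.07) were called lower and the inward rectifier Kcnj2 higher at 1.24 ± 0.09. The P-type pumps had 9 of 31 higher and 1 lower, the lipid flippase Atp8a1 at 1.25 ± 0.05 and the plasma membrane calcium pump Atp2b4 at 1.03 ± 0.07 being called.

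Receptor and second messenger genes held strong differences of both signs. Non-olfactory G protein-coupled receptors seldom passed the test, with 12 of 228 probe sets higher and 33 lower. P2ry14, a receptor of UDP sugars, stood at -2.18, -2.20 and -2.33 in the wildtype arrays and 2.16, 2.15 and 2.15 in the knockout arrays. It had the largest difference of the list at 4.39 ± 0.05 (adjusted p = 7.03e-14), and the bradykinin receptor Bdkrb1 was called lower at -3.13 ± 0.11 (adjusted p = 6.58e-10). The adhesion receptor Adgrg2 was called higher at 1.94 ± 0.10 and Gpr176 lower at -2.04 ± 0.06, with the lysophosphatidic acid receptor Lpar2 also called lower. Pde8a, a phosphodiesterase that breaks down cyclic AMP, stood at -1.31, -1.38 and -1.41 in the wildtype arrays and 1.25, 1.25 and 1.41 in the knockout arrays. Between the genotypes this gave 2.67 ± 0.06 (adjusted p = 9.99e-12), whereas the phosphodiesterases Pde10a (-1.72 ± 0.06) and Pde3b (-1.47 ± 0.05) were called lower. Of 24 phosphodiesterases 3 were higher and 8 lower. The phospholipases Plcb4 (-1.77 ± 0.08), Plcg1 (-1.38 ± 0.05) and the related Plcl2 (-1.26 ± 0.09) were called lower, and Rcan3, an inhibitor of calcineurin, was called higher at 1.21 ± 0.06.

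Receptors, adaptors and regulators of insulin and PI3K signalling differed in both directions. Grb10, an adaptor that binds the insulin receptor, stood at -2.03, -2.02 and -2.14 in the wildtype arrays and 2.09, 2.17 and 2.12 in the knockout arrays. It had the largest difference of the list and was called higher at 4.20 ± 0.05 (adjusted p = 9.2e-14), an 18.3-fold difference. Insr, the insulin receptor, stood at 0.62, 0.66 and 0.65 in the wildtype arrays and -0.76, -0.77 and -0.78 in the knockout arrays. It was called lower at -1.41 ± 0.04 (adjusted p = 6.09e-11), with the hepatocyte growth factor receptor Met at -1.11 ± 0.04 and Grb14, an adaptor related to Grb10, at -2.00 ± 0.05. Deptor, an inhibitor of mTOR, stood at 1.27, 1.09 and 1.28 in the wildtype arrays and -1.18, -1.09 and -1.17 in the knockout arrays. In log2 terms the change was -2.36 ± 0.05 (adjusted p = 1.08e-11), and Inpp4b, a phosphatase of PI3K lipids, was called lower at -2.06 ± 0.04. Sgk3, a kinase close to Akt, was called higher at 2.43 ± 0.08 (adjusted p = 3.56e-10). Over the whole list of 48 PI3K, Akt and mTOR probe sets 16 were higher and 15 lower. In the MAP kinase list of 46, 15 were higher and 12 lower, and Map2k6, an activator of p38, was called lower at -2.19 ± 0.08 (adjusted p = 7.81e-10). Rassf2, which binds Ras, was called lower at -2.17 ± 0.07 and the Ral exchange factor Rgl3 higher at 1.47 ± 0.04.

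Developmental pathways showed changes in a few named members. Gas1, a surface protein that binds Hedgehog, stood at 1.46, 1.38 and 1.41 in the wildtype arrays and -1.13, -1.07 and -1.14 in the knockout arrays. Its log2 fold change was -2.53 ± 0.04 (adjusted p = 1.71e-12), and the Hedgehog receptor Ptch1 was called lower at -1.19 ± 0.07. Of 15 Hedgehog pathway genes 2 were higher and 4 lower, and the co-receptor Cdon, given above, was called higher. On the chromosomes described further on where lower probe sets prevailed, 4 of 5 were lower and none higher. Where higher ones prevailed 2 of 8 were higher and none lower. Of the Hippo list, the Yap targets Ccn2 (1.70 ± 0.08) and Ankrd1 (1.20 ± 0.06) were called higher, with 10 of 25 probe sets higher and 7 lower. Stat6 was the called member among 25 Jak, Stat and Socs probe sets, at 1.68 ± 0.04 (adjusted p = 1.68e-11).

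Transcription factor families differed in their balance. Basic helix-loop-helix factors had 9 of 76 probe sets higher and 17 lower. On the chromosomes described further on where lower probe sets prevailed, 2 of 33 were higher and 10 lower. Where higher ones prevailed 3 of 27 were higher and 3 lower, and on the others 4 of 16 were higher and 4 lower. Ebf3, a factor of mesenchymal and neural lineages, stood at 1.22, 1.11 and 1.18 in the wildtype arrays and -1.15, -1.11 and -1.26 in the knockout arrays. It was called lower at -2.34 ± 0.05 (adjusted p = 7.84e-12), with its relative Ebf1 at -1.11 ± 0.07, the clock factor Arntl2 at -1.38 ± 0.05 and Atoh8 at -1.21 ± 0.06, while Sim2 was called higher at 1.93 ± 0.08. Gata4 was called lower at -1.53 ± 0.10, Runx3 higher at 1.05 ± 0.11 and Klf8 lower at -1.24 ± 0.07. Of 21 Ets factors none was called, and Fli1 came nearest at 0.97 ± 0.07 (adjusted p = 2.24e-07). Of 50 histone lysine methylase and demethylase probe sets 9 were higher and 21 lower. Where lower probe sets prevailed 2 of 23 were higher and 13 lower, and where higher ones did 6 of 23 were higher and 5 lower. In this list 3 were called higher, among them the X-linked demethylase Kdm6a at 1.06 ± 0.05 and the meiotic methylase Prdm9 at 1.28 ± 0.08. The called lower member was the Y-linked Kdm5d at -2.04 ± 0.05, which like Kdm6a is also on the list of sex chromosome markers.

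Zinc finger genes named Zfp, mostly DNA-binding repressors, were mostly lower where they differed. Of 212 probe sets 103 were lower (48.6%) and 32 higher (15.1%), with a median of -0.16, and in the irradiated arrays 96 were lower and 39 higher. The differences were mostly small, with 7 called lower and 3 higher. Zfp358 stood at 0.88, 0.73 and 0.73 in the wildtype arrays and -0.86, -0.67 and -0.67 in the knockout arrays, or -1.51 ± 0.06 apart on the log2 scale (adjusted p = 8.28e-10). Zfp940 (-1.50 ± 0.10) and Zfp354c (-1.08 ± 0.06) were called lower and Zfp983 (1.22 ± 0.09), Zfp37 (1.14 ± 0.09) and Zfp185 (1.14 ± 0.06) higher. These genes sit in clusters on a few chromosomes. On the chromosomes where lower probe sets outnumbered higher ones, as given further on, 71 members were lower and 11 higher, and of 46 on the chromosomes with the opposite balance 15 were lower and 13 higher.

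Genes of RNA handling and protein synthesis leaned lower by small amounts. Of 69 mitochondrial ribosomal proteins 31 were lower and 8 higher (median -0.11), of 48 translation initiation and elongation factors 22 were lower and 5 higher (-0.12), and of 99 hnRNP, SR and spliceosomal probe sets 35 were lower and 13 higher (-0.12). The lean of these 3 lists differed with the chromosomes described further on. Where lower probe sets prevailed, 22 were lower and 2 higher, 10 lower and none higher, and 17 lower and 1 higher, in that order. Where higher ones prevailed, the counts were 4 lower and 4 higher, 4 lower and 5 higher, and 5 lower and 8 higher. Aminoacyl-tRNA synthetases had 16 of 31 lower and none higher, with a median of -0.16. Farsa, the phenylalanyl-tRNA synthetase subunit, stood at 0.61, 0.67 and 0.74 in the wildtype arrays and -0.61, -0.64 and -0.67 in the knockout arrays, or -1.32 ± 0.07 apart on the log2 scale (adjusted p = 1.34e-08). Mrps35 was the called member of the mitochondrial ribosome at -1.04 ± 0.08. Eif4g3, a scaffold of translation initiation, ran against its list. It stood at -1.35, -1.43 and -1.48 in the wildtype arrays and 1.51, 1.35 and 1.58 in the knockout arrays and was called higher at 2.90 ± 0.07 (adjusted p = 1.7e-11), and the splicing regulators Mbnl3 (2.34 ± 0.10) and Rbm47 (1.29 ± 0.08) were called higher too. Cytosolic ribosomal proteins divided evenly, with 4 of 21 higher and 5 lower.

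Innate immune sensors had more higher than lower members. Of 41 Toll-like, NOD-like and cytosolic sensor genes 14 were higher and 5 lower, and the 4 called were all higher. The balance differed with the chromosomes described further on. Where higher probe sets prevailed 9 of 21 sensor genes were higher and none lower. Where lower ones prevailed 3 of 14 were higher and 3 lower, and on the others 2 of 6 were higher and 2 lower. The lower members included the NOD-like sensor Nod2 at -0.77 ± 0.07 (adjusted p = 1.47e-06). Ifih1, a sensor of double-stranded RNA, stood at -0.70, -0.83 and -0.77 in the wildtype arrays and 0.75, 0.74 and 0.98 in the knockout arrays. The difference was 1.59 ± 0.06 on the log2 scale (adjusted p = 1.14e-09), and the DNA sensor Cgas (1.40 ± 0.08), the lipopolysaccharide receptor Tlr4 (1.03 ± 0.06) and its partner Ly96 (1.37 ± 0.09) were called as well. Of 10 guanylate-binding and immunity-related GTPases 6 were higher and none lower, with Irgm1 at 2.14 ± 0.07 and Gbp7 at 1.33 ± 0.11. The ubiquitin ligase Trim25, which acts in RNA sensing, stood at -1.04, -1.10 and -1.06 in the wildtype arrays and 1.18, 1.23 and 1.23 in the knockout arrays, or 2.28 ± 0.06 apart on the log2 scale (adjusted p = 2.81e-11). Other immune lists were more mixed. Of 10 Irf factors 2 were higher and 5 lower with none called. Of 70 probe sets of interleukins and their receptors 7 were higher and 5 lower. The cytokine Il6 was called lower at -1.28 ± 0.07 (adjusted p = 1.92e-08) and so was the receptor chain Il4ra at -1.01 ± 0.07. The receptor chain Il10rb was called higher at 1.53 ± 0.07 (adjusted p = 4.85e-09). Among heat shock and J proteins the counts were even, with 18 of 68 higher and 16 lower, but the 3 called, Hspb8 (2.27 ± 0.05), Dnaja4 (1.60 ± 0.08) and Dnajc12 (1.04 ± 0.08), were all higher.

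Markers of the labelled cell type were measured in both genotypes but did not move as a group. Of 15 fibroblast marker genes 6 were higher and 5 lower, with 1 called higher and 3 called lower. The growth factor receptor Pdgfra stood at 1.11, 1.12 and 1.14 in the wildtype arrays and -1.11, -1.29 and -1.23 in the knockout arrays. The difference of -2.33 ± 0.05 (adjusted p = 1.11e-11) was the largest of the list. The homeobox factor Prrx1 (-2.10 ± 0.04) and the collagen gene Col3a1 (-1.14 ± 0.05) were called lower too, and the surface protein Thy1 was called higher at 1.29 ± 0.06. Another collagen gene, Col1a1, was higher at 0.80 ± 0.10 (adjusted p = 2.09e-05) and was not called. Because the values are centred per probe set, they do not tell whether a marker is absent. Of the lists for other cell types, few epithelial, endothelial and blood markers passed the test. Of 13 epithelial markers 2 were higher, Krt19 and Epcam (0.26 ± 0.05), and none lower, and E-cadherin (Cdh1) did not pass at -0.05 ± 0.05 (adjusted p = 0.502). Of 15 endothelial markers 3 were higher and none lower, with Kdr at 0.17 ± 0.03 and Pecam1 not passing at -0.04 ± 0.05 (adjusted p = 0.592). Of 13 macrophage and blood markers 1 was higher and 2 lower, and the common blood cell marker Ptprc did not pass at -0.03 ± 0.03 (adjusted p = 0.543). Csf1r, the receptor of macrophage growth factor, stood at 1.14, 1.07 and 1.09 in the wildtype arrays and -1.19, -1.07 and -1.22 in the knockout arrays, or -2.26 ± 0.05 apart on the log2 scale (adjusted p = 1.13e-11). Of 15 pericyte and smooth muscle probe sets 4 were higher and 5 lower. The smooth muscle actin Acta2, also a gene of contractile fibroblasts, stood at -1.47, -1.50 and -1.47 in the wildtype arrays and 1.57, 1.55 and 1.51 in the knockout arrays. It was called higher at 3.03 ± 0.04 (adjusted p = 4.48e-13), an 8.14-fold difference, with the actin-binding Tagln at 2.47 ± 0.05, and Notch3 was called lower at -1.25 ± 0.05. Of 7 mesothelial markers 2 were higher and 1 lower, with Msln called higher at 1.10 ± 0.06 beside Krt19, which is also on the epithelial list. The part of other cell types in these differences was not tested, and in bulk RNA fewer cells of a type and less RNA per cell cannot be told apart.

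Receptor families known from sensory tissue barely changed. Of 719 olfactory receptor probe sets 5 were higher and 32 lower at the adjusted p alone, with 1 called, the pseudogene Olfr1372-ps1 at 1.41 ± 0.14, and of 82 vomeronasal receptors 1 was higher and 1 lower. The lower receptor was Vmn1r43 at -3.12 ± 0.12 (adjusted p = 8.94e-10), an 8.68-fold difference. Its neighbours in the same receptor cluster did not pass, with Vmn1r42 at -0.09 ± 0.06 and Vmn1r44 at -0.08 ± 0.09. Of 36 prolactin and placental probe sets none was higher and 2 were lower.

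Genes along chromosomes did not change evenly. Of 14996 probe sets 14938 could be placed on a chromosome through the mouse reference annotation, whose order of genes was used and whose coordinates were not. On chromosome 1, 32.9% of the probe sets were higher and 11.5% lower in knockout, and on chromosome 19, 31.9% were higher and 12.2% lower, with 16 called higher and 1 lower. Chromosome 6 had 9.36% higher and 32.9% lower, chromosome 13 had 10.9% and 32.5%, and chromosome 7, which carries Pak1, had 10.0% and 26.7%. The 8 chromosomes where higher probe sets outnumbered lower ones by more than 1.5 to 1 (1, 4, 5, 9, 10, 16, 19 and X) held 1792 higher and 805 lower, and the 6 with the reverse balance (2, 6, 7, 11, 13 and 17) held 734 higher and 1745 lower. In the irradiated arrays the same chromosomes held 1895 higher and 802 lower, and 893 higher and 1631 lower. The lean was shared by lists of unrelated function. Synaptotagmin, SNARE and sorting nexin genes had 32 of 49 higher and 2 lower on the first set of chromosomes, and 6 of 40 higher and 13 lower on the second. Aminoacyl-tRNA synthetases had 10 of 11 lower on the second set and 3 of 10 on the first. Lysosomal genes were mostly higher on both, with 13 of 20 higher and 4 lower on the first and 8 of 15 higher and 2 lower on the second. The chromosome sets were formed from these same values, so these counts are a description, and copy number was not tested.

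**Figure D4:**
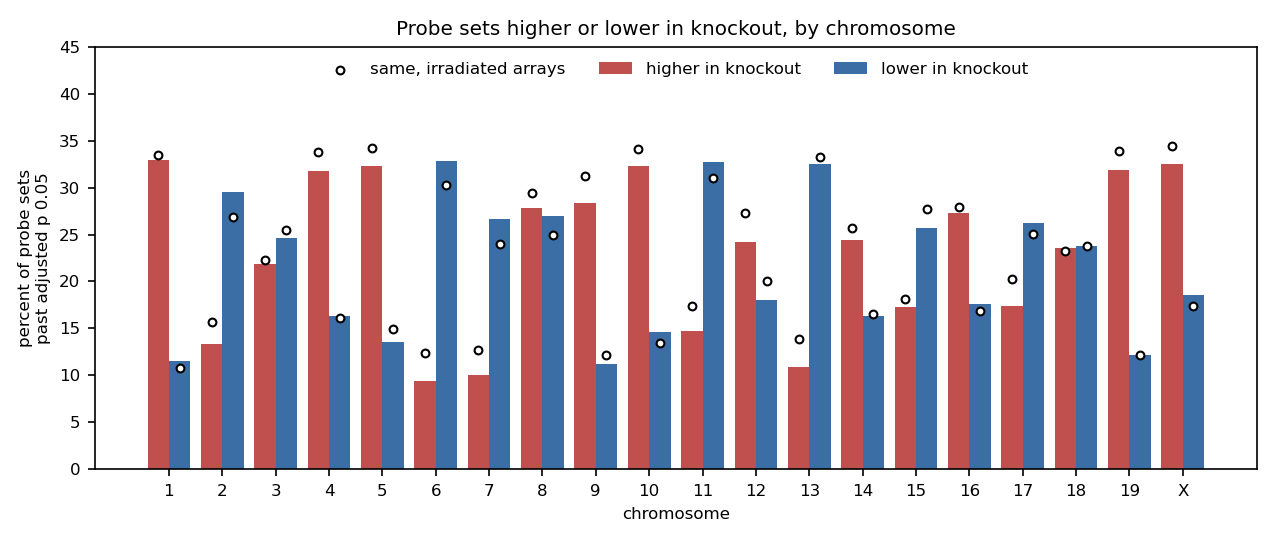
Percent of the probe sets of each chromosome (x axis) that were higher (red bars) or lower (blue bars) in unirradiated knockout arrays at an adjusted p under 0.05 (y axis), with the same percentages from the irradiated arrays as open circles. Higher probe sets prevail on chromosomes such as 1 (32.9% against 11.5%) and lower ones on chromosomes such as 6 (32.9% against 9.36%), and the circles lie close to the bars.

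Within chromosomes the differences bunched in stretches of neighbouring genes. Any run in which at least 15 of 20 neighbouring measured genes were lower, or at least 15 higher, at the adjusted p alone was taken as a stretch. There were 7, holding 204 genes with 40 called lower and 5 higher. Of these, 3 lay on chromosome 8. From Cd209d to Ankrd10, 19 of 27 genes were lower with a median log2 fold change of -1.02 and 14 called, from Hmgxb4 to Scoc 18 of 26 were lower (median -0.37), and from Ddx39a to Heatr3 47 of 64 were lower (median -0.69) with 15 called. Others lay on chromosome 2 from Eya2 to Atp9a (15 of 21 lower), chromosome 11 from Polm to Hus1 (15 of 20 lower) and the X chromosome from Kcne1l to Hsd17b10 (17 of 23 lower). The X chromosome also held the stretch of higher genes, Irak1 to Pbsn, with 16 of 23 higher and a median of 0.50. The irradiated arrays gave medians of -0.94, -0.38 and -0.64 in the 3 stretches of chromosome 8.

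In this ordering chromosome 8 was split for counting at the end of the third stretch. Of its 448 measured genes from Insr to Heatr3, the end of the third stretch, 70 were higher (15.6%) and 174 lower (38.8%), with 13 called higher and 50 lower. Of the 304 genes beyond it, from Adcy7 to Itgb1, 140 were higher (46.1%) and 29 lower (9.54%), with 19 called higher and 7 lower. The irradiated arrays gave 84 higher and 169 lower in the former and 137 higher and 20 lower in the latter. The split was made after the values were seen, and the direction did not turn at Heatr3 itself. From Brd7 to Bbs2, just beyond it, genes past the adjusted p were still lower, except Ces1g at 0.19. The lower ones included Fto at -1.29 and Bbs2 at -1.11. Between the first and second stretches genes of both directions lay side by side, such as Dctd at -1.47 and Tenm3 at 2.13. Several genes described above lie on this chromosome. Insr, Zfp358, Cers4, Arhgef7, Dctd, Lpar2, Hapln4, Inpp4b, Podnl1, Farsa and Gpt2 lie in the former part and were called lower, while Stxbp2 and Clcn3 lie there too and were called higher. Cdh11, Cdh13, Atp6v0d1, Galns, Vps4a, Nqo1, Gabarapl2 and Map1lc3b lie in the latter and were called higher. Nod2 also lies in the latter but was lower at -0.77. The lysosomal genes Mcoln1 and Lamp1, lower at the adjusted p alone, lie in the former part. The part of chromosomal position in these differences was not tested. Around Pak1 itself the 40 nearest measured genes, 20 on each side, included 7 higher and 15 lower with a median of -0.05 and 1 called higher.

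**Figure D5:**
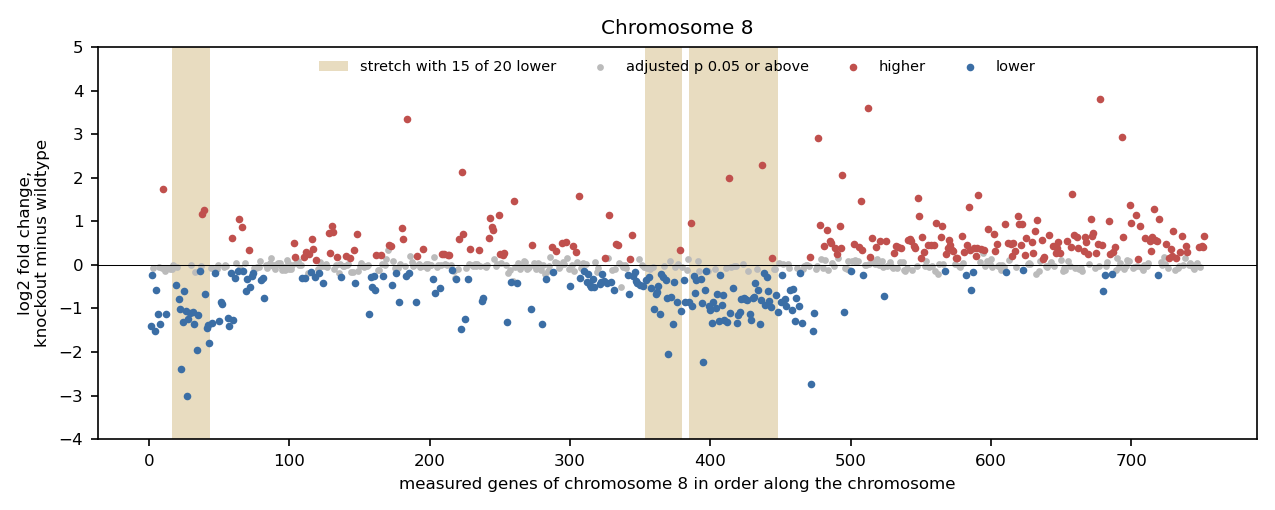
Log2 fold change, knockout minus wildtype (y axis), of the measured genes of chromosome 8 in their order along the chromosome (x axis), red where higher, blue where lower and grey where the adjusted p was 0.05 or above, with the 3 stretches of lower genes shaded. Genes up to the end of the third stretch are more often lower (174 of 448) than higher (70), and those after it more often higher (140 of 304) than lower (29).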

How the data were processed

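RNA of 4 groups of 3 arrays (wildtype and Pak1 knockout fibroblasts, with and without ionizing radiation) was hybridised by the authors to Affymetrix mouse exon arrays. The deposited values are log2 levels that the authors normalized in Gene Spring GX and centred on the median of each probe set over the 12 arrays, which the values bear out to within 5e-07. The annotation gave a single gene symbol to 14996 of 16755 probe sets, several to 1019 and none to 740. Array scanner files were not used here, so brightness and detection are unknown and no filter on dim probe sets could be run, and precision is limited by the number of arrays.

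The 12 arrays were fitted with limma 3.58.1 in R 4.3.3 (group means, lmFit and eBayes, 8 residual and 3.48 prior degrees of freedom), with Benjamini-Hochberg correction across the full set of 16755 probe sets. The fit was tested on simulated data. The 113 gene lists, by name or symbol pattern, and the genes compared were chosen with earlier results of these data known. From a list, up to 4 called higher and up to 4 called lower with the smallest adjusted p and no overlap between groups could be named, or up to 2 where none was called, with defining members that did not pass. Rac1, Cdc42, Git1, Git2, Cdh2, Lamp1, Mcoln1, Atp6v1a, Cln3, Hsp90b1, Creld2, Syvn1, Vegfa, Slc2a1, Ak4, Cbr2, Cbr4, Nod2, Epcam, Sgce, Slbp and Fgf18 were named outside this rule, after their values were seen, and genes that end a stretch or neighbour another gene by their position. Some gene families near PAK1 are not reported here. Promoters came from RefSeq (GRCm38.p6) and were matched by symbol, and gene order and chromosome from the mouse reference annotation. Alternatives were the unpaired t-test of the methods, other normalizations, other fold thresholds, a replicate block, robust estimation and leaving out arrays.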

Additional observations from a re-analysis of the deposited data

Results flagged for a closer look

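For 6 of the genes named, the genotype difference itself changed between unirradiated and irradiated arrays in the interaction test, with p-values adjusted over all 16755 probe sets. Fgf18 was lower in unirradiated knockout arrays (log2 fold change -1.29) and not in irradiated ones (0.13), a change of 1.43 (adjusted p = 0.000796). Kcnj2 went from 1.24 to 0.34, a change of -0.90 (adjusted p = 0.00294), and Cavin2 from 1.98 to 1.43, a change of -0.55 (adjusted p = 0.0316). Arntl2 went from -1.38 to -1.02 (0.36, adjusted p = 0.0184) and Notch3 from -1.25 to -0.89 (0.36, adjusted p = 0.0349). Pdgfra went from -2.33 to -2.74 (-0.40, adjusted p = 0.0196). In all 6, as in every called probe set, the 3 wildtype and 3 knockout values without irradiation did not overlap. This describes the calls and has no bearing on the interaction.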

How the results depend on the processing

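The count of 675 probe sets (371 higher, 304 lower) was the same with the t-test of the methods, a fit of the 6 unirradiated arrays alone, robust estimation and a fit of probe sets with a single symbol, since every probe set with a 2-fold difference also passed the adjusted p and these settings share the fold changes. Quantile normalization gave 721 and centring the arrays on their medians 675, and leaving out 1 array at a time gave 666 to 685 (359 to 385 higher and 293 to 313 lower). Without the stretches of neighbouring genes, an alternative chosen after seeing the data, 630 were left. The fold threshold mattered more. At 1.5-fold 1914 passed (984 higher, 930 lower) and with no fold threshold 6661 (3318 higher, 3343 lower).

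The replicate numbers in the labels showed no steady pairing of the samples, as the deviations of same-numbered wildtype and knockout arrays correlated at -0.131, 0.211 and 0.0489. With the replicate block the count was 675, but the block leaves the fold changes as they are, so this count does not bear on pairing.

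Of the genes named, 18 fell below a 2-fold difference without 1 of the arrays or after centring, all with a log2 fold change of 1.07 or less in size and 0.87 or more after the change. They were Arhgap24, Atp2b4, Cbr1, Cltb, Dnajc12, Fuca1, Gabarapl2, Gamt, Il4ra, Lpar2, Map1lc3b, Mrps35, P2rx4, Rab7b, Rtkn2, Runx3, Scoc and Tlr4. Syvn1 lost the adjusted p with the t-test (adjusted p = 0.0609) and without wildtype replicate 2 (0.0702) or 3 (0.0908) or knockout replicate 2 (0.101). Hmgxb4, which ends a stretch of chromosome 8, lost it without wildtype replicate 1 (0.0771) or 3 (0.0714) or knockout replicate 1 (0.0746) or 2 (0.101). Vim (0.0401) and Ptprc (0.0147) passed the adjusted p with that t-test alone. Quantile normalization moved Vmn1r43 to -3.81, Bdkrb1 to -3.74 and Eif2s3y to -4.09 on the log2 scale. The causes of these shifts were not tested. Levels could not be set against background signal.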
